A study of Homo sapiens with 6 samples.

Results

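The genes described are the protein-coding genes of human chromosome 19 that are named ZNF plus a number and reached a mean of at least 1 CPM, the read count scaled to library size, over all libraries. Of 245 such genes on the chromosome, 226 reached that level, and all 226 were among the 17803 genes tested. The other 19 lay below it, 10 of them with no count in any library. Members were thus chosen by name, position and measured level, and that level is given as a description. Just inside the limit lay ZNF575 at 1.04 and ZNF709 at 1.07 CPM, and just outside it ZNF564 at 0.714 and ZNF888 at 0.509 CPM.

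Wild-type H9 cells, a widely used human embryonic stem cell line, had been turned into motor neurons, and their RNA was sequenced. One group had simulated microgravity (SMG), made with a 2D clinostat, which turns a culture so that gravity pulls on it from changing directions, and the other at normal gravity (NG), with 3 libraries in each. All cells had been differentiated with 0.01 µM retinoic acid and 0.1 µM SAG, a Hedgehog pathway agonist. The comparison asks which of these genes differ between the groups. How long the clinostat ran was not found in the labels. Nothing in them tells separate cultures from repeat libraries of a culture, so every p-value rests on the spread among libraries, and that spread may be technical only.

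Chromosome 19 carries the densest clusters of C2H2 zinc finger genes in the human genome, built up by repeated tandem duplication. Most of their proteins join a KRAB box to a row of zinc fingers, each finger held by a pair of cysteines and a pair of histidines. The fingers bind DNA, often within retrotransposons. The KRAB box recruits TRIM28, which in turn gathers histone methyltransferases, deacetylases and heterochromatin proteins that silence the site. In neural progenitors and neurons this machinery keeps transposable elements and the genes near them quiet.

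A KRAB box pattern was found in the protein of 192 members and not in that of 34, by a match of at least 7 of 8 conserved positions. A missing match says only that the pattern was not found. The number of finger patterns per protein ranged from 0 to 31 with a median of 12. The members differ widely in base composition, and the finger-coding units below are printed because they show it. Each is the first finger of canonical spacing in the transcript with the most fingers, 84 bases from GENCODE 29 read 5′ to 3′, with the codons of the paired cysteines and histidines in capitals. Positions are on GRCh38, the build of that annotation and not the build hg19 named for the counts, and all lie in coding exons.
ZNF441: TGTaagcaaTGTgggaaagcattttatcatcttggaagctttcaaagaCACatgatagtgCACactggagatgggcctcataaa
ZNF569: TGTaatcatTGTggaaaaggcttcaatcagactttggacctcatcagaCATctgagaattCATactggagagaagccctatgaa
ZNF846: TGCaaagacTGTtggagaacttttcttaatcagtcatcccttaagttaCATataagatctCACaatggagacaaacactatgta
ZNF528: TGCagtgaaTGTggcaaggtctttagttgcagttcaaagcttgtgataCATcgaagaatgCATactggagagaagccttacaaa
ZNF628: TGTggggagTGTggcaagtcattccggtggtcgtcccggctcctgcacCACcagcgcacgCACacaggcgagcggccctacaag
ZNF580: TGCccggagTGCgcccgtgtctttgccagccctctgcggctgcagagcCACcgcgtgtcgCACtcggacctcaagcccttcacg
ZNF91: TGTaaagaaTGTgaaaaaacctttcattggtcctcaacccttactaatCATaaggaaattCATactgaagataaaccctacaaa

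These units lie at chr19:11780668-11780751 on the plus strand (ZNF441), chr19:37414013-37414096 on the minus strand (ZNF569), chr19:9758396-9758479 on the minus strand (ZNF846) and chr19:52415495-52415578 on the plus strand (ZNF528). The others lie at chr19:55481305-55481388 on the plus strand (ZNF628), chr19:55642788-55642871 on the plus strand (ZNF580) and chr19:23362262-23362345 on the minus strand (ZNF91). Their GC content was 40.5% in ZNF441 and in ZNF569, both lower in SMG, and 34.5% and 41.7% in ZNF846 and ZNF528, both higher in SMG. It was 66.7% and 69.1% in ZNF628 and ZNF580, members without a KRAB match that were also higher in SMG, and 32.1% in ZNF91. Of the members, 223 had a unit of this spacing, with a median GC of 40.5% where a KRAB box matched and 60.1% where none did. Over whole transcripts the median was 41.8% with a KRAB match and 59.2% without. The promoters differed less. In RefSeq's GRCh38.p14 table, which matched 201 members by symbol, the 300 bases around the start had a median GC of 59.0% with a KRAB match and 64% without, against 65.7% for other protein-coding genes.

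Chromosome 19 zinc finger genes passed the test less often than tested genes as a whole, in both directions. Of the 226 members, 23 rose and 30 fell in SMG, or 10.2% and 13.3%, where 17.3% of all tested genes rose and 18.5% fell. In all, 23.5% of members passed edgeR's quasi-likelihood test with a Benjamini-Hochberg adjusted p under 0.05, where 35.8% of all tested genes did. The median log2 fold change of the members, SMG minus NG, was -0.0093, and 108 members lay above 0 and 118 below. That of all tested genes was -0.00018.

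The changes that passed were small. The members that passed changed by a median of 1.21-fold in either direction, and 1 of them reached 1.5-fold, a size that 5.52% of all tested genes reached. No member changed 2-fold, with log2 fold changes from -0.54 to 0.60. The groups did not overlap in 34 members that were higher in SMG and 45 that were lower, or 79 in all, where 22.6% and 23.6% of all tested genes did so. The members are not strongly expressed: their median was 16.1 CPM, with a median SE of 0.076 on the log2 scale, against 17.3 CPM and 0.077 over all tested genes.

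One library stood apart for these genes. The members' summed CPM was 5631, 5548 and 5582 in SMG, against 5580, 5579 and 6041 in NG, and the value of 6041 belongs to NG replicate 3. That replicate held the highest NG value in 143 members (63.3%), where it held it in 36.3% of all tested genes. Among members with a KRAB match the share was 69.8%, among those without 26.5%, among ZNF genes of other chromosomes 51.6%, among other genes of like GC 42.7% and among the other protein-coding genes of chromosome 19 it was 17.1%. Without NG replicate 3 the balance of calls turned: 27 members rose and 23 fell, with a median of 0.037, where 16.4% of all tested genes rose and 17.1% fell. Of the 53 members called with all libraries, 43 were also called without it.

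**Figure D1:**
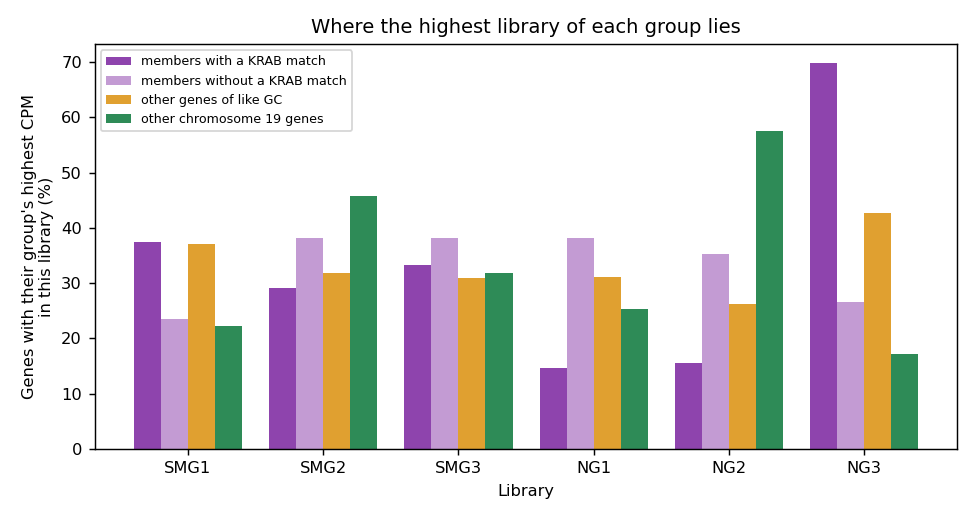
For each of the 6 libraries (x axis), the bars give the percentage of genes whose highest CPM within their own group of 3 lies in that library, for members with and without a KRAB match, other genes of like GC and other chromosome 19 genes. NG replicate 3 holds the highest NG value in 69.8% of members with a KRAB match and in 26.5% of those without.

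The log2 fold change was higher at higher GC content, in members and in other genes. Across the 226 members it followed the GC content of the longest transcript with a Spearman rho of 0.414 and a Pearson r of 0.410. The rho was 0.435 across 12615 other protein-coding genes with a mean of at least 1 CPM. These points are genes of the same 6 libraries and not independent replicates, so no p is given. Protein-coding genes were cut into 10 equal GC bins. In the lowest bin (30.2% to 38.3%) 6 of 35 members fell and 0 rose by edgeR's test, with 2 rises at an unadjusted p under 0.05 and 0 by DESeq2 or limma, where 48.7% of other protein-coding genes fell and 3.28% rose. In the highest bin (61.6% to 74.5%) 5 of 13 rose (38.5%) and 0 fell, with 0 falls at an unadjusted p under 0.05 and 0 by DESeq2 or limma, where 44% of other protein-coding genes rose and 4.17% fell.

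Genes of like GC content moved further down. Taken as other protein-coding genes with at least 1 CPM and a GC between the members' 10th and 90th percentile, 37.5% to 55.1%, they numbered 8070. In SMG 13.2% of them rose and 27.5% fell, with a median log2 fold change of -0.049, against 10.2%, 13.3% and -0.0093 for the members. They were more strongly expressed, with a median of 37.9 CPM and a median SE of 0.055. The subset of 3873 whose level also matched, between 4.82 and 53.0 CPM, showed 10.7% rising and 26% falling in SMG and a median of -0.058, with a median SE of 0.066. This set and the members were not compared by a test, and the second was added after the data had been seen.

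Members fell in a smaller share than other protein-coding genes in each of 3 wide ranges of GC, but they were also less expressed in each. From the lowest range up their median level was 19.5, 15.6 and 12.1 CPM, against 44, 34.7 and 21.8 CPM for the other genes. Their median SE was 0.074, 0.079 and 0.087, against 0.052, 0.056 and 0.070, and shares of calls depend on this. In the 3 lowest bins together, 24 of 126 members fell (19%) and 6 rose (4.76%), with a median of -0.049. Of 3726 other protein-coding genes there, 39.9% fell and 5.21% rose, with a median of -0.105. In bins 4 to 7, 6 of 77 members fell (7.79%) and 9 rose (11.7%), with a median of 0.015, where 22.8% of 5059 other genes fell and 16.8% rose, with a median of -0.021. From the eighth bin up the members were few, 23 in all. Of these 8 rose (34.8%) and 0 fell by edgeR, where 38.7% of 3830 other genes rose and 7.68% fell. The medians there were 0.159 for the members and 0.131 for the other genes. No member fell at an unadjusted p under 0.05 or by DESeq2 or limma. With NG replicate 3 left out, the members of the 3 lowest bins had 19 lower, 10 higher and a median of 0.0038, while the other genes had 36.3% lower and a median of -0.087.

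**Figure D2:**
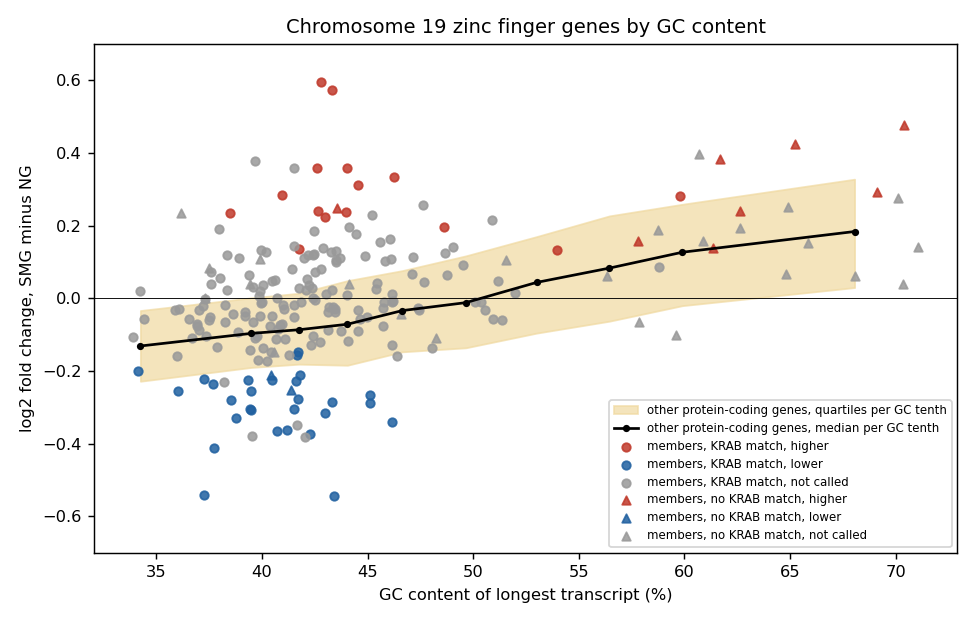
Each point is a member, placed by the GC content of its longest transcript (x axis, %) and its log2 fold change, SMG minus NG (y axis), with circles for a KRAB match, triangles for none, and colours for members higher, lower or not called in SMG. The line and band give the median and quartiles of other protein-coding genes per GC bin, from -0.131 in the lowest to 0.184 in the highest.

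With each library's trend with GC content removed by an offset, 34 members rose and 22 fell in SMG, with a median of 0.046, where 17% of all tested genes rose and 15.8% fell. Of the genes of like GC, 18.9% then rose and 19.9% fell, and their median was -0.0062. The offset takes out any difference between the groups that follows GC, whatever its source. Of the 53 members called before, 35 were called with it.

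The protein classes differed in their counts. Among the 192 members with a KRAB match, 15 rose (7.81%) and 28 fell (14.6%) in SMG, with a median of -0.022, where 17.3% of all tested genes rose and 18.5% fell. Among the 34 without, 8 rose (23.5%) and 2 fell (5.88%), with a median of 0.123. With the GC offset the balance among members with a match turned, with 28 rises, 18 falls and a median of 0.042, and those without had 6 rises, 4 falls and 0.067. GC and class go together: of the 34 members without a match, 21 had a GC of at least 55%, of which 7 rose and 0 fell by edgeR (0 falls at an unadjusted p under 0.05, and 0 by DESeq2 or limma), and 13 had less, of which 1 rose and 2 fell. Only 2 members with a match had a GC of 55% or more, and 1 of them rose. Class and base composition cannot be told apart at the high end. Without NG replicate 3, members with a match gave 21 rises and 21 falls, and those without gave 6 and 2. By number of fingers, 8 of 44 members with up to 8 fingers rose and 2 fell, and 2 of 42 with 17 or more rose and 9 fell. In between, 8 of 74 with 9 to 12 fingers rose and 11 fell, and 5 of 66 with 13 to 16 rose and 8 fell. Across members the Spearman rho of log2 fold change with finger number was -0.18. The median GC was 45.9% with up to 8 fingers and 40.8% with 17 or more, and finger number was not separated from GC.

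The ZNF genes of other chromosomes moved more often. Of 225 with at least 1 CPM, 47 rose (20.9%) and 40 fell (17.8%), with a median of 0.033 and a median level of 27 CPM. Of 708 other protein-coding genes of chromosome 19, 283 rose (40%) and 64 fell (9.04%), with a median of 0.133 that became 0.019 with the GC offset. The members had a smaller share of rises than these other genes of the chromosome, but also a lower GC and level. Their median GC was 42.4% against 60.2%, and their median level 16.1 against 27.2 CPM. With the GC offset 15% of members and 25.1% of the other chromosome 19 genes rose, and 9.73% and 18.2% fell. These counts are a description with no test of the difference.

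Of the 5 most expressed members, ZNF146 and ZNF83 fell and the other 3 did not pass. ZNF146, made up of fingers with no KRAB box, had 180, 184 and 176 CPM in SMG, against 202, 206 and 235 CPM in NG. All SMG libraries lay below all NG libraries, and the log2 fold change was -0.25 ± 0.05 (SE, n = 3 per group; edgeR adjusted p = 2.69e-04). Per kilobase of annotated exon it was also the highest member, at 47.4 CPM per kb, where the median member had 3.34 and the median of other protein-coding genes was 6.39. ZNF83 had 182, 177 and 177 CPM in SMG and 192, 188 and 215 CPM in NG, again without overlap (-0.15 ± 0.04, edgeR adjusted p = 0.00548). With the GC offset ZNF83 was at -0.07 (adjusted p = 0.0956).

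ZNF91, the repressor of SVA retrotransposons, had 143, 140 and 139 CPM in SMG, against 147, 147 and 156 CPM in NG. The groups did not overlap, but the difference of -0.09 ± 0.04 did not pass (edgeR adjusted p = 0.0572). Without NG replicate 2 it did pass (-0.10, edgeR adjusted p = 0.048). Over 19 alternative fits, listed at the end, the value of ZNF91 ranged from -0.10 to 0.0088. ZNF93, which represses LINE-1 elements, had 21.9, 22.3 and 20.8 CPM in SMG and 22.8, 22.4 and 28.2 CPM in NG, where the replicate at 28.2 stands above the other two (-0.17 ± 0.07, edgeR adjusted p = 0.0741). It passed without NG replicate 1 (-0.22, adjusted p = 0.0474) or without NG replicate 2 (-0.23, adjusted p = 0.0265). Over the alternative fits the value of ZNF93 ranged from -0.23 to -0.04. ZNF260 averaged 119 ± 2.56 CPM in SMG and 119 ± 11 CPM in NG (SD), and ZNF738 117 ± 6.02 and 120 ± 6.32 CPM. Both overlapped between groups, with log2 fold changes of 0.00026 and -0.03. With the GC offset ZNF260 passed (0.10, edgeR adjusted p = 0.0415), and with the offset for GC and length ZNF738 did (0.12, adjusted p = 0.0129).

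Along the chromosome the members fell into 23 runs, a run ending where more than 5 other protein-coding genes stood between neighbours, and 10 runs held at least 5 members. The counts of each run stand beside 17.3% of all tested genes that rose and 18.5% that fell. The run nearest the start that is large reaches from ZNF653 to ZNF791. Of its 24 members 3 rose and 3 fell in SMG, with a median of -0.0082, and it held the widest changes. ZNF441 fell to 21.9, 22.3 and 21 CPM in SMG, against 30.6, 31.4 and 33 CPM in NG. No library of one group came near the other (-0.54 ± 0.06, edgeR adjusted p = 3.19e-08), and under every alternative run it kept its call, between -0.56 and -0.44. ZNF823 fell to 7.41, 7.23 and 7.31 CPM in SMG, against 8.63, 8.44 and 11.5 CPM in NG (-0.37 ± 0.11, edgeR adjusted p = 0.00814). That call rested on NG replicate 3: without it the value was -0.22 (adjusted p = 0.105).

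In the same run ZNF653, which has no KRAB match, rose to 7.46, 7.63 and 7.09 CPM in SMG, against 5.85, 5.79 and 4.82 CPM in NG (0.42 ± 0.11, edgeR adjusted p = 0.00305). It shares exon bases with other annotated genes on its strand, so reads may be split between them. With the GC offset it was at 0.26 (adjusted p = 0.06). The weakly expressed ZNF878 had 2.08, 2.33 and 2.06 CPM in SMG and 1.74, 0.862 and 1.58 CPM in NG (0.60 ± 0.21, edgeR adjusted p = 0.0297). It too shares exon bases with another annotated gene on its strand. ZNF563 had 1.04, 1.30 and 1.27 CPM in SMG and 1.93, 1.54 and 1.77 CPM in NG (-0.54 ± 0.22, edgeR adjusted p = 0.0478). Groups did not overlap in either gene, but both calls were lost without any one of several libraries. DESeq2 called neither gene (adjusted p = 0.109 for ZNF878). ZNF563 kept its call in 6 of 19 alternative runs, and lost it with limma-voom and with upper quartile scaling among others. ZNF878 had adjusted p = 0.0523, 0.105 and 0.0561 without SMG replicate 1, 2 or 3 and 0.198 without NG replicate 2 (0.36). ZNF563 had adjusted p = 0.152, 0.0659 and 0.0783 without SMG replicate 1, 2 or 3, and 0.192 and 0.0854 without NG replicate 1 or 3.

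The run from ZNF101 to ZNF254, which holds ZNF91 and ZNF93, had the lowest share of calls of the runs with at least 5 members. Of its 28 members 0 rose and 2 fell in SMG by edgeR, with 0 rises at an unadjusted p under 0.05 and 0 by DESeq2 or limma, and 22 lay below 0. Its median was -0.041, and its median GC of 37.5% was the lowest of the runs with at least 5 members. Its median was 0.020 without NG replicate 3, with 2 falls, and 0.046 with the GC offset, with 3 rises and 2 falls.

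In the run from ZNF565 to ZNF573, 8 of 27 members fell (29.6%) and 1 rose in SMG, with a median of -0.058 and a median GC of 39.4%. Of other protein-coding genes in the GC bin from 38.3% to 40.7%, 36.3% fell. ZNF569 fell to 23.1, 23.4 and 23.3 CPM in SMG, against 31.3, 28.5 and 33.2 CPM in NG (-0.41 ± 0.06, edgeR adjusted p = 4.91e-06). The SMG libraries agreed closely and lay below every NG library. ZNF420, known as Apak, a restraint on p53, fell to 24.2, 22 and 22.2 CPM in SMG, against 25.9, 26.6 and 30.8 CPM in NG (-0.28 ± 0.07, edgeR adjusted p = 0.00156). ZNF382, a KRAB repressor, had 32, 30.3 and 33.4 CPM in SMG and 35.4, 35.2 and 41.6 CPM in NG (-0.23 ± 0.06, edgeR adjusted p = 0.00539). ZNF146, above, lies here too. Leaving out NG replicate 3 gave 6 falls, 1 rise and a median of -0.039 in the run, and the GC offset 6 falls, 3 rises and a median of 0.021.

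In the run from ZNF283 to ZNF180, 5 of 19 members fell and 1 rose in SMG, with a median of -0.077. ZNF226 fell to 35.8, 33.6 and 37.2 CPM in SMG, against 45.5, 43.2 and 48.7 CPM in NG (-0.37 ± 0.06, edgeR adjusted p = 7.17e-06). ZNF230 had 6.70, 6.47 and 7.14 CPM in SMG and 8.39, 8.07 and 9.08 CPM in NG (-0.33 ± 0.10, edgeR adjusted p = 0.0109). Its call was lost without SMG replicate 2 (-0.30, adjusted p = 0.0547) and with the GC offset (-0.24, adjusted p = 0.0626). It was also lost by DESeq2 and with the offset for GC and length. In the same run ZNF223 went the other way, with 3.07, 3.32 and 2.98 CPM in SMG and 2.12, 2.22 and 1.95 CPM in NG (0.57 ± 0.16, edgeR adjusted p = 0.00615). In all of these the groups were apart, so members of a run moved in opposite directions. ZNF223 is weakly expressed and shares exon bases with another annotated gene on its strand, so its value is less certain. DESeq2 gave ZNF223 an adjusted p of 0.0505. ZNF224, a repressor of aldolase A, had 4.15, 4.63 and 4.29 CPM in SMG and 4.81, 3.33 and 3.66 CPM in NG, with overlap (0.13 ± 0.14, edgeR adjusted p = 0.521). ZNF180 was at -0.15 ± 0.07 (edgeR adjusted p = 0.116), or -0.22 without NG replicate 2 (adjusted p = 0.0247). Over the alternative fits its value ranged from -0.22 to -0.06. Leaving out NG replicate 3 gave 3 falls, 2 rises and a median of -0.0035 in the run.

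The run from ZNF577 to ZNF331 had 4 of 35 members higher and 6 lower in SMG, with a median of -0.049. ZNF528 rose to 43.5, 42.6 and 40.6 CPM in SMG, against 32.9, 32.1 and 33.8 CPM in NG (0.36 ± 0.05, edgeR adjusted p = 5.02e-06). Both groups were tight and far apart, and under every alternative run it kept its call, between 0.34 and 0.43. ZNF816 fell to 7.88, 7.99 and 7.62 CPM in SMG, against 10.3, 8.87 and 11 CPM in NG (-0.36 ± 0.10, edgeR adjusted p = 0.00444). It overlaps 3 other annotated genes on its strand, and its value is uncertain. ZNF350, a partner of BRCA1 also called ZBRK1, had 12.2, 13.3 and 12.7 CPM in SMG and 10.9, 10.8 and 10.5 CPM in NG (0.24 ± 0.08, edgeR adjusted p = 0.0253). Without SMG replicate 2 or 3 it did not pass (0.21 and 0.24, adjusted p = 0.0994 and 0.0599). DESeq2 did not call ZNF350 either. The imprinted gene ZNF331 had 28.1, 27.8 and 28.8 CPM in SMG and 29.4, 29.6 and 34 CPM in NG (-0.13 ± 0.06, edgeR adjusted p = 0.0956). Leaving out NG replicate 3 gave 4 rises, 6 falls and a median of -0.0098 in the run, and the GC offset 7 rises, 3 falls and 0.037.

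Members of the last run, from ZNF264 to ZNF446, lay mostly above 0. Of its 42 members 32 lay above 0 and 10 below, 5 rose (11.9%) and 1 fell (2.38%) in SMG, and the median was 0.108 at a median GC of 46.1%. The share of rises was below the 17.3% of all tested genes, of which 18.5% fell. Of other protein-coding genes in the GC bin from 45.3% to 48%, 13% rose and 23.4% fell, with a median of -0.034. Its median was 0.106 without NG replicate 3, with 8 higher and 1 lower, and 0.101 with the GC offset, also with 8 higher and 1 lower. ZNF544 rose to 16, 16.6 and 16.1 CPM in SMG, against 12.1, 11.8 and 14.9 CPM in NG (0.33 ± 0.08, edgeR adjusted p = 0.00264). It overlaps other annotated genes on both strands. The 1 fall was ZNF460, with 5.95, 6.60 and 6.74 CPM in SMG and 8.91, 7.02 and 8.35 CPM in NG (-0.34 ± 0.11, edgeR adjusted p = 0.0146), lost without SMG replicate 1 (-0.29, adjusted p = 0.076) or NG replicate 1 (-0.25, adjusted p = 0.131). DESeq2 did not call ZNF460. ZNF274, which binds the 3′ ends of zinc finger genes and brings SETDB1 to them, had 47.4, 53.8 and 49.9 CPM in SMG and 53, 49.4 and 55.2 CPM in NG. These overlapped (-0.06 ± 0.05, edgeR adjusted p = 0.411). The runs were drawn with results known, and whether they differ from each other was not tested.

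**Figure D3:**
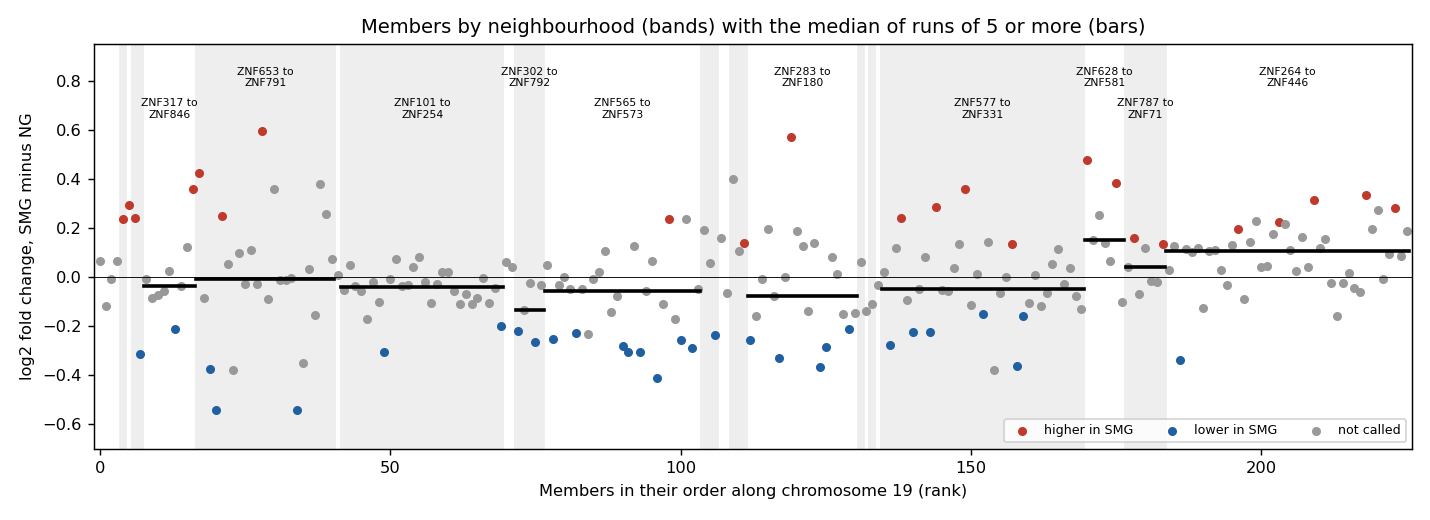
Members in their order along chromosome 19 (x axis, rank) against the log2 fold change, SMG minus NG (y axis), coloured by call, with shaded bands for alternate runs and black bars for the median of runs with at least 5 members. The bar of the run from ZNF264 to ZNF446 stands at 0.108 and that of the run from ZNF283 to ZNF180 at -0.077.

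Members without a KRAB match and with high GC made up the run from ZNF628 to ZNF581, where 2 of 7 rose and 0 fell by edgeR (0 falls at an unadjusted p under 0.05, and 0 by DESeq2 or limma), with a median of 0.151 at a median GC of 64.9%. ZNF628 rose to 7.22, 6.33 and 6.26 CPM in SMG, against 4.53, 6.04 and 3.72 CPM in NG (0.48 ± 0.13, edgeR adjusted p = 0.0065). ZNF580 rose to 16.2, 18.3 and 18.1 CPM in SMG, against 13.1, 15.6 and 11.8 CPM in NG (0.38 ± 0.09, edgeR adjusted p = 9.86e-04). NG replicate 3 was the lowest library in both. With the GC offset ZNF628 was at 0.28 (adjusted p = 0.0866) and the median of the run at -0.021. ZNF580 shares exon bases with 2 other annotated genes on its strand.

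The run from ZNF302 to ZNF792 lay below 0 in all 5 members, of which 2 fell, with a median of -0.132, or 1 fell without NG replicate 3 (median -0.090). In the run from ZNF787 to ZNF71, 2 of 7 members rose, with a median of 0.040, and without NG replicate 3 edgeR called 0.

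Other members with known roles lay in smaller runs. ZNF444, a SCAN domain factor, had 29.3, 30 and 30.2 CPM in SMG and 26.4, 28.5 and 25.4 CPM in NG (0.16 ± 0.06, edgeR adjusted p = 0.033). That call was lost without any library but NG replicate 2, with values from 0.13 to 0.17 and edgeR adjusted p from 0.0527 to 0.109. It was also lost with the GC offset (0.06, adjusted p = 0.4) and with the offset for GC and length (0.02, adjusted p = 0.809). DESeq2 and the fit with the transcript length offset did not call ZNF444 either. ZNF536, which restrains neuronal differentiation by retinoic acid, had 49.9, 48.6 and 51.1 CPM in SMG and 49.5, 47.6 and 46 CPM in NG, and the groups overlapped (0.06 ± 0.05, edgeR adjusted p = 0.339). ZNF846, in the run from ZNF317 to ZNF846, rose to 13.7, 12 and 14 CPM in SMG, against 10.5, 9.05 and 11.3 CPM in NG (0.36 ± 0.09, edgeR adjusted p = 0.00311).

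**Figure D4:**
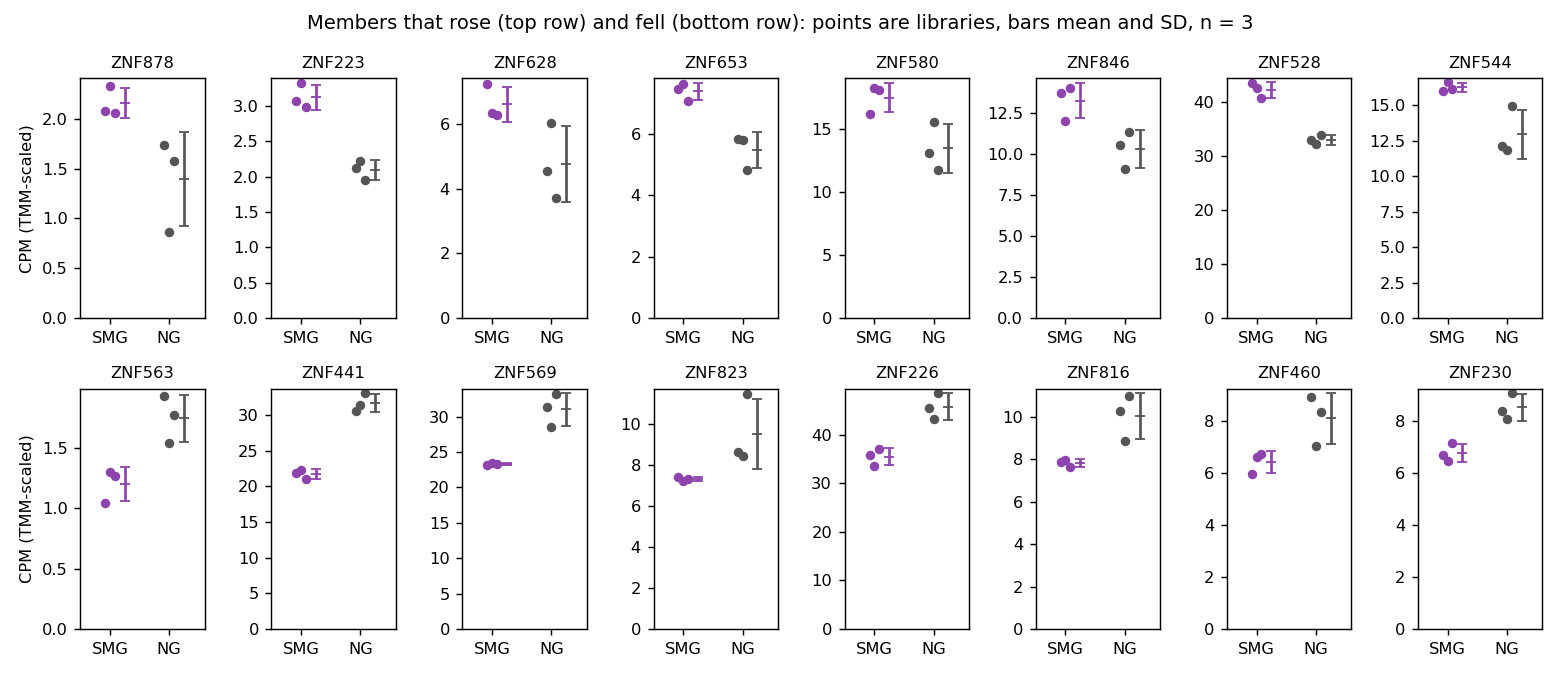
CPM after TMM scaling (y axis, from 0) of 16 members that passed without overlap, 8 at each end of the log2 fold change, in SMG and NG. Points are libraries and bars give mean and SD (n = 3 each), with ZNF528 at 42.2 ± 1.52 CPM in SMG and 32.9 ± 0.841 CPM in NG.

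The partners of KRAB proteins were measured by a list of 35 genes, of which 33 were tested. Of these, 11 rose (33.3%) and 5 fell (15.2%) in SMG, with a median of 0.021, where 17.3% of all tested genes rose and 18.5% fell. The listed genes were strongly expressed, with a median of 133 CPM against 17.3 CPM over all tested genes. Their median SE was 0.039 against 0.077, so smaller changes could pass, and the shares are not compared at like level. The falls numbered 3 without SMG replicate 1, 1 without SMG replicate 3 and 2 with the GC offset, where the median was 0.069. TRIM28, the scaffold that KRAB boxes bind, had 369, 373 and 362 CPM in SMG and 323, 342 and 292 CPM in NG (0.21 ± 0.04, edgeR adjusted p = 0.00103). The groups did not overlap, and with the GC offset TRIM28 was at 0.05 (adjusted p = 0.197). SETDB1, the histone methyltransferase that TRIM28 brings in, had 87.1, 86.9 and 89.8 CPM in SMG and 89.7, 89.4 and 99.1 CPM in NG, with overlap (-0.07 ± 0.04, edgeR adjusted p = 0.174). ATF7IP, the partner that stabilises SETDB1, was at -0.02 ± 0.04 (edgeR adjusted p = 0.733).

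The list holds 13 subunits of the NuRD remodelling and deacetylase complex, of which 5 rose, 1 fell and 7 did not pass. This and the next grouping were made after the values were seen. CHD3, a remodeller subunit, averaged 373 ± 11.7 CPM in SMG and 308 ± 8 CPM in NG (SD; 0.27 ± 0.03, edgeR adjusted p = 2.67e-07). CHD4, the other remodeller on the list, was more strongly expressed and did not pass. It averaged 817 ± 9.49 CPM in SMG and 803 ± 13.2 CPM in NG (0.03 ± 0.03, edgeR adjusted p = 0.566). GATAD2A averaged 127 ± 1.59 CPM in SMG and 102 ± 7.28 CPM in NG (0.32 ± 0.04, edgeR adjusted p = 9.80e-07), and MBD3 56.5 ± 5.06 CPM in SMG and 45.8 ± 4.57 CPM in NG (0.30 ± 0.07, edgeR adjusted p = 0.00641). With the offset for GC and length MBD3 did not pass (0.11, adjusted p = 0.111). The deacetylase HDAC2 was the subunit that fell, with 530 ± 12.3 CPM in SMG and 567 ± 7.58 CPM in NG (-0.10, edgeR adjusted p = 0.0176). That call was lost without SMG replicate 1 (-0.08, adjusted p = 0.102) or SMG replicate 3 (-0.09, adjusted p = 0.0798), with library size alone (-0.08, adjusted p = 0.0584), without a filter (-0.08, adjusted p = 0.0787) and with the GC offset (adjusted p = 0.978). MORC2, which works with the HUSH silencing complex, averaged 89.4 ± 1.49 CPM in SMG and 73.4 ± 2.21 CPM in NG (0.28 ± 0.04, edgeR adjusted p = 3.12e-06). The DNA methyltransferase DNMT3A averaged 104 ± 3.38 CPM in SMG and 87.6 ± 1.88 CPM in NG (0.25 ± 0.04, edgeR adjusted p = 9.58e-06). CHD3, GATAD2A, MORC2 and DNMT3A kept their calls under every alternative run.

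Of 3 heterochromatin proteins that read histone methylation, 2 fell and 1 did not pass, and of 4 tested histone methyltransferases 1 rose, 1 fell and 2 did not pass. CBX1 had 281, 295 and 302 CPM in SMG and 327, 324 and 348 CPM in NG (-0.19 ± 0.04, edgeR adjusted p = 1.44e-04). CBX3 had 258, 267 and 254 CPM in SMG and 276, 278 and 293 CPM in NG (-0.12 ± 0.03, edgeR adjusted p = 0.00646), a call lost without SMG replicate 3 (-0.11, adjusted p = 0.0562). With the GC offset CBX3 was at -0.03 (adjusted p = 0.491). Their relative CBX5 averaged 894 ± 24.1 CPM in SMG and 857 ± 25.4 CPM in NG (0.06 ± 0.03, edgeR adjusted p = 0.16), and passed without NG replicate 3 (0.09, adjusted p = 0.0178). EHMT1 was the methyltransferase that rose, with 147 ± 2.98 CPM in SMG and 124 ± 7.05 CPM in NG (0.25, edgeR adjusted p = 1.33e-05). SUV39H1, the one that fell, averaged 5.73 ± 0.574 CPM in SMG and 7.20 ± 0.526 CPM in NG (-0.32 ± 0.11, edgeR adjusted p = 0.0224). It did not pass without SMG replicate 1 or 3 or NG replicate 3 (-0.27, -0.30 and -0.26, adjusted p = 0.101, 0.0822 and 0.0895). DESeq2 did not call SUV39H1 either.

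**Figure D5:**
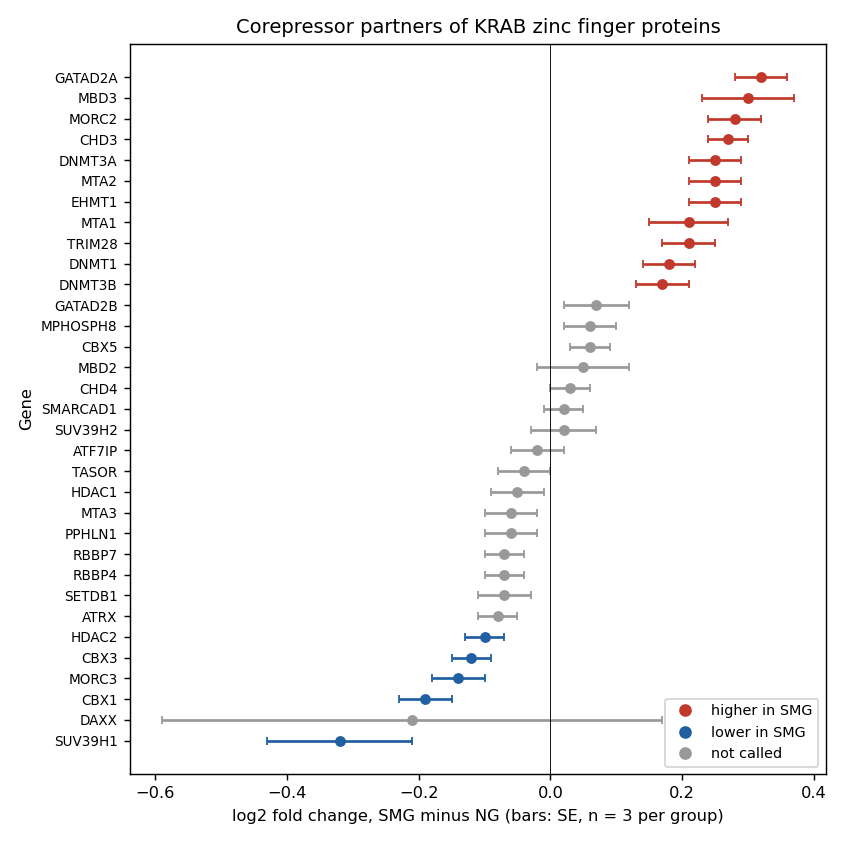
Log2 fold change, SMG minus NG, with SE bars (x axis, n = 3 per group) of the 33 tested corepressor genes, ordered by value and coloured by call. GATAD2A stands at the top with 0.32 ± 0.04, and SUV39H1 is the lowest with -0.32 ± 0.11.

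In the cells as a whole, total counts ranged from 20986483 to 22685870 in SMG and from 16329907 to 21386253 in NG. The summed CPM of 8 motor neuron markers was 694 to 724 in SMG and 574 to 609 in NG, with 5 of 7 tested markers higher and none lower. That of 6 ventral progenitor markers was 2530 to 2690 in SMG and 2440 to 2690 in NG, with none higher and 2 lower. Most of that sum was NES, with 2000 to 2130 CPM in SMG and 1860 to 2150 CPM in NG. OLIG2 had 94.2 to 99.9 CPM in SMG and 108 to 120 CPM in NG. Summed markers of pluripotent cells were 74.9 to 81.7 in SMG and 83 to 88.5 CPM in NG, of astrocytes 38.9 to 42.4 and 44.8 to 44.9, and of oligodendrocytes 239 to 241 and 247 to 273. Those of interneurons, 28.8 to 30.7 CPM in SMG and 27.1 to 32.5 CPM in NG, and of muscle, 97.9 to 108 and 103 to 108 CPM, overlapped, with 1 marker higher in each. Endothelial markers summed to 1.08 to 1.43 CPM in SMG and 1.59 to 1.84 CPM in NG, and fibroblast markers to 1.52 to 2.25 and 2.24 to 2.33. No marker found was at 0 in all libraries. The part of these differences in the zinc finger results was not tested, and in bulk RNA fewer cells of a type and less RNA per cell cannot be told apart.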

How the data were processed

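Raw counts for each Ensembl gene in 6 libraries, with no scaling, are what the authors deposited. Per the submitters' processing notes the tools were HISAT2, SAMtools, featureCounts and DESeq2, with the build hg19. No source used here gives the annotation, whether strand was used, or how multi-mapping reads were handled. The members are near copies, so this matters: 46 share at least 5% of their 50-base windows with another gene's longest transcript, and 127 share exon bases with another gene, 77 of them on the same strand. The 46 include ZNF91 (6.8%), ZNF93 (7.62%) and ZNF816 (5.66%).

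Symbols came from a table of gene names, with GENCODE 29 where it lacked one. Gene types, chromosome, order, exon overlap, transcript length and GC, and KRAB and finger patterns in translated coding sequences came from GENCODE 29. RefSeq proteins, planned for the patterns, were not used here. A finger was a pair of cysteines 2 to 4 residues apart, 12 residues, then histidines 3 to 5 apart. All genes were filtered with edgeR's filterByExpr, scaled by TMM and tested with the quasi-likelihood test (robust), and p-values were adjusted by Benjamini-Hochberg over 17803 genes. SEs are the log2 fold change over the square root of F. Levels are TMM-scaled CPM.

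Lists were described by counts and medians, with no set test. The members and lists were chosen with earlier results of these data known. Members named are the 8 highest and 8 lowest that passed without overlap, the 5 most expressed, those at the limit and a fixed list with known roles. Same-numbered libraries did not deviate together (r from -0.028 to 0.018), and no library was a copy of another of its group (chi-square over degrees of freedom 1.60 to 3.38). The code was tested on simulated data. Versions were edgeR 4.0.16 and DESeq2 1.42.0, with limma 3.58.1, under R 4.3.3.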

Additional observations from a re-analysis of the deposited data

How the results depend on the processing

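Results were recomputed with DESeq2, limma-voom, other scalings and filters, no robust estimation, the replicate number as a block, offsets for GC and transcript length, protein-coding genes alone, and without each library in turn. The cause of the changes below was not tested. Leaving out 1 library gave 16 to 27 members higher (7.08% to 11.9%) and 23 to 34 lower (10.2% to 15%) in SMG. In the same fits 10% to 14% of genes of like GC were higher and 21.2% to 26.1% lower. With all libraries these shares were 13.2% and 27.5%. The member median went from -0.0267 to 0.0367, and that of genes of like GC from -0.0537 to -0.0399. DESeq2 called 14 members higher (6.19%) and 24 lower (10.6%), and of genes of like GC 10.2% higher and 20.6% lower. The member median was 0.0457 with the GC offset and 0.0464 with GC and length together, where the genes of like GC had -0.0062 and -0.012. Those genes had a median of -0.0287 with library size alone, -0.0378 without a filter, -0.0362 over protein-coding genes alone and -0.0303 with GC as the median over transcripts. In the members' interquartile GC window, 251 of 3231 rose and 1066 fell, with a median of -0.0777. In the set also matched for level, added after seeing the data, 416 rose and 1008 fell, with a median of -0.0581. The 99 members without exon overlap had 9 higher and 13 lower, fewer because fewer genes are counted. ZNF738 was at 0.12 (adjusted p = 0.0129) and CBX3 at 0.03 with GC and length together. With the replicate block 23 members were higher and 29 lower; 51 of the 53 calls were shared, and among named genes only ZNF563 lost its call (adjusted p = 0.0621). Of 31 named genes that passed, not counting EHMT1 and HDAC2, 16 kept their call in each of the alternatives run. EHMT1 also kept its call in each, and HDAC2 did not. Low counts limit the weakest members, such as ZNF878 and ZNF563.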
